A study of Homo sapiens with 3 samples.

Results

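Genes of chromosome band 8p21, a stretch of the short arm of chromosome 8, were described in 3 human cell lines measured on exon arrays. The list held 36 neighbouring genes, selected on the intensities of these same 3 arrays because a run of them was low in HT-29 and high in MCF10A. Of the 36, 35 were measured among the 14410 genes compared, each by a transcript cluster with a symbol of its own, and R3HCC1 was not analysed here. The comparison of HT-29 with MCF10A therefore describes the choice of genes and supports nothing. The comparisons of each of these lines with MDA-MB-436 share an array with it and are not independent of the choice either.

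HT-29, a colon adenocarcinoma line, was grown in McCoy's 5A medium with fetal serum and kept for 24 h with 200 U/ml of interferon gamma (IFN-γ), an immune cytokine. MDA-MB-436, a breast adenocarcinoma line, was grown in L-15 medium with fetal serum and without added CO2. MCF10A, a mammary epithelial line that does not form tumors, was grown in DMEM/F12 with horse serum, insulin, hydrocortisone, cholera toxin and epidermal growth factor. The labels name no cytokine for either mammary line. Effects of line, medium and IFN-γ on HT-29 cannot be told apart.

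The products of 8p21 genes have little in common beyond their position: among them are subunits of RNA-processing complexes, a mitotic kinase, phosphatase subunits, transporters and secreted proteins. The short arm of chromosome 8 is often lost or rearranged in carcinomas, including those of colon and breast, and for many genes the number of copies affects the amount of transcript. Copy number was not measured here, and its part in the levels below was not tested.

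Each line had 1 array, so no replicate spread, test or standard error could be given, and the differences describe these 3 arrays. Values are intensities on a linear scale, 1 per transcript cluster, and the same gene is compared between lines. The median over all clusters was 75.9 in HT-29, 81.0 in MDA-MB-436 and 75.1 in MCF10A. Background was taken as 29.9, the 95th percentile of 228 olfactory receptor genes, whose highest value was 101. A gene is called lower or higher where it differed by at least 2-fold and its brighter array was above background. If the dimmer of both arrays lay under background, the fold is computed against the background and is written as "at least". A call uses the measured values, so a few genes were called whose bound is under 2-fold. The arrays carried markers of their labelled cells. LGALS4, VIL1 and KRT20, genes of colon epithelium, were above background in HT-29 alone, although CDH17 was under it there at 21.3. KRT18, listed with them, was above background in all lines, at 5461 in HT-29, 1228 in MDA-MB-436 and 2101 in MCF10A. KRT14, a keratin of basal mammary cells, was above background in MCF10A alone. SNAI2 and CDH3, also listed for basal mammary cells, were brightest in MCF10A, at 4078 and 1238. SNAI2 was above background in MDA-MB-436 too, at 810, and CDH3 in HT-29, at 62.2. All 3 mesenchymal markers, VIM, CDH2 and FN1, were above background in MDA-MB-436 and MCF10A, and none was in HT-29. CDH2 was only just above background in MCF10A, at 33.9, against 708 in MDA-MB-436. Of markers of other cell types, PTPRC and CD3E of leukocytes and both endothelial genes were under background in every line. CD14 was at 38.9, 86.5 and 156 in HT-29, MDA-MB-436 and MCF10A, and the fibroblast gene COL3A1 was just above background in MDA-MB-436 at 30.8. IRF1, an early gene of the response to IFN-γ, was at 3961, 326 and 94.9 in HT-29, MDA-MB-436 and MCF10A. In bulk RNA, fewer cells with a transcript and less transcript per cell cannot be told apart.

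Most 8p21 members were dimmest in HT-29 and brightest in MCF10A, with MDA-MB-436 in between. HT-29 was the lowest line for 27 of the 35 and MCF10A the highest for 26. The full order, HT-29 below MDA-MB-436 below MCF10A, held for 21, and in 12 of these MDA-MB-436 lay nearer to HT-29 on the log2 scale. The members had 29 genes above background in HT-29, 32 in MDA-MB-436 and 30 in MCF10A. In all 3 lines 27 were above it, 7 were in 1 or 2 lines, and EGR3 was in none.

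Between HT-29 and MCF10A, 21 of 35 members lay 2-fold or more below MCF10A in HT-29, against 10.1% of all genes compared, and 0 were at least 2-fold higher, against 10.2%. The median log2 difference was -1.21 over the members and 0.11 over all genes, and 7 members were at least 4-fold lower and 0 higher, against 3.50% and 4.34% of all genes. Since this comparison chose the members, these counts are descriptive. Between MDA-MB-436 and MCF10A, MDA-MB-436 was lower by at least 2-fold for 16 members, against 8.74% of all genes, and 5 higher, against 8.76%. The median log2 difference there was -0.89 over the members and 0.02 over all genes. At least 4-fold, 2 were lower and 5 higher in MDA-MB-436, against 2.01% and 3.65% of all genes. Both comparisons use the MCF10A array, on which the members were chosen to be high. Between HT-29 and MDA-MB-436, 11 members differed by at least 2-fold with HT-29 the lower, against 11.0% of all genes, and 2 higher, against 11.5%. The median log2 difference there was -0.70 over the members and 0.08 over all genes. At least 4-fold, 7 were lower and 1 higher in HT-29, against 4.68% and 4.21% of all genes. Those 7 were LOXL2, STC1, NEFL, PNMA2 and CLU, which were high in MDA-MB-436, and DPYSL2 and PBK, which were highest in MCF10A. The 14 members with no call between HT-29 and MCF10A included 4 that were under background in both lines.

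**Figure D1:**
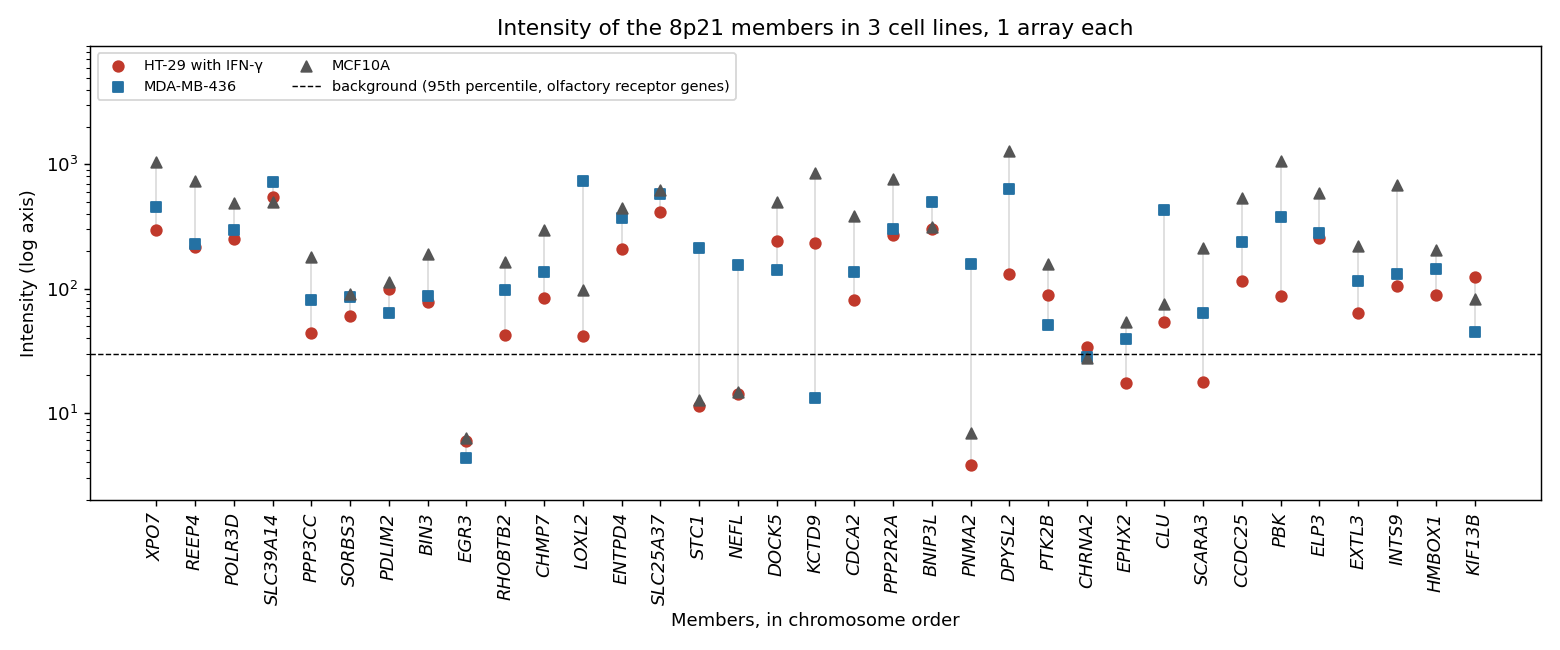
Intensity of the 35 measured 8p21 members, in chromosome order, on a log axis, with a circle for HT-29 with IFN-γ, a square for MDA-MB-436 and a triangle for MCF10A, 1 array each; the dashed line is the background of 29.9. The triangle is the top symbol for 26 genes, and LOXL2, STC1, NEFL, PNMA2 and CLU stand out by a high square, KCTD9 by a low one.

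The members of the cell division group, genes of mitosis and of nuclear reassembly after it, all lay lower in both cancer lines. All 5 lay 2-fold or more lower in HT-29 than in MCF10A, and all 5 in MDA-MB-436, with median log2 differences of -1.83 and -1.49. The shares of all genes called lower are 10.1% and 8.74%. Since the members were chosen on these arrays, the counts in this and the following groups are descriptive. PBK encodes a mitotic serine/threonine kinase also called TOPK. Its intensity was 88.0 in HT-29, 379 in MDA-MB-436 and 1065 in MCF10A. It was the member with the largest measured fold between HT-29 and MCF10A, 12.1-fold lower in HT-29. In MDA-MB-436 it was 2.81-fold lower than in MCF10A. Its HT-29 value lay under 101, the highest olfactory receptor value, as did those of CDCA2, CHMP7, BIN3, HMBOX1, EXTL3 and others. CDCA2, which targets protein phosphatase 1 to chromatin as cells leave mitosis, was at 81.2 in HT-29, 136 in MDA-MB-436 and 382 in MCF10A. That is 4.71-fold lower in HT-29 and 2.82-fold lower in MDA-MB-436 than in MCF10A. REEP4 encodes a protein that clears endoplasmic reticulum from mitotic chromosomes. At 216 in HT-29, 231 in MDA-MB-436 and 729.5 in MCF10A, it had the 2 cancer lines within 1.07-fold of each other and both more than 3-fold below MCF10A. CHMP7, an ESCRT-III protein that acts in resealing the nuclear envelope, was at 83.3 in HT-29, 135 in MDA-MB-436 and 297 in MCF10A, a graded order. PPP2R2A, the gene of the B55 alpha regulatory subunit of protein phosphatase 2A, was at 269 in HT-29, 304 in MDA-MB-436 and 763 in MCF10A. Here too the cancer lines lay close together, 1.13-fold apart.

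Of 6 members with nuclear and RNA functions, 4 were called lower in HT-29 and 3 in MDA-MB-436, each set against MCF10A. The shares of all genes are 10.1% and 8.74%. INTS9 encodes a subunit of Integrator, the complex that processes the ends of small nuclear RNAs. Its intensity was 105 in HT-29, 130.4 in MDA-MB-436 and 687 in MCF10A, 6.52-fold lower in HT-29 and 5.27-fold lower in MDA-MB-436 than in MCF10A. XPO7, a nuclear transport receptor, was at 294 in HT-29, 454 in MDA-MB-436 and 1049.7 in MCF10A. ELP3, the catalytic subunit of the Elongator complex that modifies tRNA, was at 256 in HT-29, 283 in MDA-MB-436 and 587 in MCF10A. MCF10A stood apart from 2 similar cancer lines for ELP3, whereas XPO7 was graded. HMBOX1, a homeobox gene whose product binds telomeric DNA, was at 88.5 in HT-29, 143 in MDA-MB-436 and 205 in MCF10A, which is 2.32-fold lower in HT-29 and 1.43-fold lower in MDA-MB-436. POLR3D, an RNA polymerase III subunit, just missed the 2-fold mark at 250.4 in HT-29, 297 in MDA-MB-436 and 489 in MCF10A, 1.95-fold lower in HT-29. The immediate early transcription factor gene EGR3 was under background in every line, between 4.34 and 6.30, and no fold is given for it.

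Among 5 members of signalling and ubiquitin ligase adaptors, 4 lay 2-fold or more below MCF10A in HT-29 and 4 in MDA-MB-436. Of all genes, 10.1% and 8.74% were called lower. KCTD9 encodes a BTB-domain protein that acts as an adaptor of the ubiquitin ligase CUL3. It was at 234 in HT-29, 13.2 in MDA-MB-436 and 854 in MCF10A. Its MDA-MB-436 value was under background, at least 28.5-fold lower than MCF10A and at least 7.83-fold below HT-29, whereas HT-29 was 3.64-fold lower than MCF10A. It is the only member that was under background in MDA-MB-436 and above it in both other lines, and its neighbours on the list, DOCK5 and CDCA2, were above background there. DOCK5, an activator of the GTPase RAC, was at 242 in HT-29, 141 in MDA-MB-436 and 499.7 in MCF10A. PTK2B, which encodes the kinase PYK2, was at 89.0 in HT-29, 50.8 in MDA-MB-436 and 157 in MCF10A. For DOCK5 and PTK2B MDA-MB-436 was the lowest line, 3.54-fold and 3.09-fold below MCF10A. PPP3CC, a catalytic subunit of the calcium-dependent phosphatase calcineurin, was at 43.7 in HT-29, 81.6 in MDA-MB-436 and 179 in MCF10A. RHOBTB2, an adaptor that binds CUL3, was at 42.4 in HT-29, 98.3 in MDA-MB-436 and 163 in MCF10A. Both followed the common order, with HT-29 4.10-fold and 3.85-fold lower than MCF10A, and both HT-29 values lay under the highest olfactory receptor value.

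The 5 cytoskeletal members were mixed. DPYSL2 encodes CRMP2, a protein that binds tubulin and is best known from growing axons. It was at 130.3 in HT-29, 634 in MDA-MB-436 and 1291 in MCF10A, 9.91-fold lower in HT-29 and 2.03-fold lower in MDA-MB-436 than in MCF10A. BIN3, a BAR-domain gene, was at 77.9 in HT-29, 88.0 in MDA-MB-436 and 189 in MCF10A, with both cancer lines more than 2-fold below MCF10A. SORBS3, which encodes the adhesion protein vinexin, stayed under the highest olfactory receptor value in all lines, at 60.3 in HT-29, 85.1 in MDA-MB-436 and 91.0 in MCF10A. PDLIM2, a PDZ and LIM domain gene, was at 99.1 in HT-29, 63.9 in MDA-MB-436 and 113 in MCF10A, with HT-29 1.14-fold below MCF10A. KIF13B, a kinesin gene at the end of the list, was at 123 in HT-29, 44.4 in MDA-MB-436 and 82.2 in MCF10A. It went against the common order, since HT-29 was the highest line, 2.77-fold above MDA-MB-436, with MCF10A in between.

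Of 8 members of transport, organelles and glycan synthesis, 5 were called lower in HT-29 and 2 in MDA-MB-436, each against MCF10A. The shares over all genes are 10.1% and 8.74%. SCARA3, a scavenger receptor gene linked to oxidative stress, was at 17.7 in HT-29, 63.4 in MDA-MB-436 and 212 in MCF10A. Its HT-29 value was under background, so it was at least 7.08-fold lower than MCF10A and at least 2.12-fold lower than MDA-MB-436. CCDC25 encodes a membrane protein reported to bind extracellular DNA. At 116 in HT-29, 237 in MDA-MB-436 and 536 in MCF10A, it was 4.62-fold lower in HT-29 and 2.26-fold lower in MDA-MB-436 than in MCF10A. EXTL3, a glycosyltransferase of heparan sulfate synthesis, was at 64.2 in HT-29, 116 in MDA-MB-436 and 222 in MCF10A. ENTPD4, a nucleotide hydrolase of the Golgi, was at 209 in HT-29, 369.9 in MDA-MB-436 and 450.0 in MCF10A. For ENTPD4 the difference lay mainly between HT-29 and the mammary lines, which were within 1.22-fold of each other. EPHX2, the soluble epoxide hydrolase gene, was dim throughout, at 17.4 in HT-29, 39.0 in MDA-MB-436 and 53.6 in MCF10A, and against the background MCF10A was at least 1.79-fold higher than HT-29. SLC25A37, which encodes the mitochondrial iron importer mitoferrin 1, was at 415 in HT-29, 579.6 in MDA-MB-436 and 620.3 in MCF10A. HT-29 was the lowest line, and the small difference between the mammary lines turned sign under quantile normalization. Its other cluster, dimmer and not used, read 206, 205 and 272 in HT-29, MDA-MB-436 and MCF10A. Against the common order went SLC39A14, which encodes the zinc and manganese transporter ZIP14, at 551 in HT-29, 724 in MDA-MB-436 and 500.0 in MCF10A. So did BNIP3L, the gene of the mitophagy receptor NIX, at 303 in HT-29, 501 in MDA-MB-436 and 314 in MCF10A. HT-29 and MCF10A were 1.10-fold apart for SLC39A14 and 1.04-fold for BNIP3L, and MDA-MB-436 was the highest line for both.

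The 6 secreted and neural members departed most from the common order. They held all 5 members with a call of higher in MDA-MB-436 against MCF10A, a call made for 8.76% of all genes. The group joins secreted with neural genes, while DPYSL2 was placed with the cytoskeleton. Groups were formed after the members had been chosen on these arrays, so that count depends on the grouping and is descriptive. LOXL2 encodes a lysyl oxidase that crosslinks collagen. It was at 41.6 in HT-29, 739.9 in MDA-MB-436 and 98.0 in MCF10A, with MDA-MB-436 7.55-fold above MCF10A, while HT-29 was 17.8-fold below MDA-MB-436 and 2.36-fold below MCF10A. CLU, the gene of the secreted chaperone clusterin, was at 53.4 in HT-29, 429 in MDA-MB-436 and 75.5 in MCF10A. MDA-MB-436 was 5.69-fold higher than MCF10A, and HT-29 was 1.41-fold lower than MCF10A. The glycoprotein hormone gene STC1 was at 11.4 in HT-29, 211 in MDA-MB-436 and 12.7 in MCF10A. NEFL, the light neurofilament gene of neurons, was at 14.1 in HT-29, 156 in MDA-MB-436 and 14.8 in MCF10A. PNMA2, which encodes a neuronal antigen of paraneoplastic disease, was at 3.81 in HT-29, 159 in MDA-MB-436 and 6.83 in MCF10A. These 3 genes were under background in HT-29 and MCF10A, so no fold between those lines is given, and MDA-MB-436 was higher than either by at least 7.06-fold for STC1, at least 5.20-fold for NEFL and at least 5.31-fold for PNMA2. CHRNA2, a nicotinic receptor subunit gene, was near background in all lines, at 34.1 in HT-29, 28.3 in MDA-MB-436 and 27.5 in MCF10A.

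The span from XPO7 to KIF13B, the first and last members in the annotation's gene order, also held 29 measured genes that were not on the list. Of these 13 were under background in every line, so many had no measurable level to compare. In HT-29, 7 of the 29 were called lower than in MCF10A and 1 higher, or 24.1% and 3.45%, against 10.1% and 10.2% of all genes, and the median log2 difference was -0.21. In MDA-MB-436, 5 were called lower than in MCF10A and 0 higher, or 17.2% lower, against 8.74% of all genes, with a median of -0.47. Both medians became 0.00 when values under background were set to it. The receptor genes for the death ligand TRAIL lie here. TNFRSF10D, a decoy receptor gene, was at 83.0 in HT-29, 37.2 in MDA-MB-436 and 589 in MCF10A, with HT-29 7.09-fold and MDA-MB-436 15.8-fold below MCF10A. TNFRSF10A, which encodes death receptor 4, was at 144 in HT-29, 175 in MDA-MB-436 and 406 in MCF10A. TNFRSF10B, which encodes death receptor 5, was at 635 in HT-29, 581 in MDA-MB-436 and 896 in MCF10A. Both death receptor genes were brightest in MCF10A, TNFRSF10A by 2.82-fold over HT-29 and TNFRSF10B by 1.41-fold. The other decoy gene, TNFRSF10C, was under background in every line. FZD3, a WNT receptor gene, was at 23.4 in HT-29, 49.4 in MDA-MB-436 and 263 in MCF10A, at least 8.80-fold lower in HT-29 than in MCF10A. BMP1, a procollagen protease gene, was at 94.6 in HT-29, 214 in MDA-MB-436 and 187 in MCF10A, with HT-29 below 2 similar mammary lines. ADAM28, a metalloprotease gene, was the 1 gene called higher in HT-29, at 41.2 in HT-29, 12.3 in MDA-MB-436 and 7.17 in MCF10A, which is at least 1.38-fold over the background. NEFM, beside NEFL on the chromosome, was under background in every line. The remaining genes called lower in HT-29 than in MCF10A, named after their values were seen, were FHIP2B, HR, CCAR2 and TRIM35. TRIM35, a ubiquitin ligase gene, was at 58.5 in HT-29, 118 in MDA-MB-436 and 226 in MCF10A.

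Genes low in HT-29 and high in MCF10A also followed the last member. Just before XPO7 stood LZTS1, GFRA2 and DOK2, which were dim in all lines. LZTS1 was at 43.3 in HT-29, 67.0 in MDA-MB-436 and 37.3 in MCF10A, and GFRA2 was under background throughout. DOK2 was at 31.2 in HT-29, 22.6 in MDA-MB-436 and 31.2 in MCF10A. Just after KIF13B stood DUSP4, SARAF and LEPROTL1. DUSP4, a phosphatase of MAP kinases, was at 61.6 in HT-29, 129 in MDA-MB-436 and 259 in MCF10A. SARAF, a regulator of calcium entry, was at 297 in HT-29, 440.1 in MDA-MB-436 and 881 in MCF10A, and LEPROTL1 was at 400.2 in HT-29, 473 in MDA-MB-436 and 865 in MCF10A. All 3 genes after the span showed the order of the members, lowest in HT-29 and highest in MCF10A.

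Over the 64 measured 8p genes before the span, toward the end of the chromosome, 25 were called lower in HT-29 than in MCF10A and 0 higher. Over the 67 measured 8p genes after it, up to HGSNAT, 35 were called lower and 1 higher. Of 334 measured genes of the long arm, 8q, 56 were called lower and 33 higher. As shares these are 39.1%, 52.2% and 16.8% lower, beside the 10.1% of all genes. The shares called higher are 0%, 1.49% and 9.88%, beside 10.2% of all genes. For MDA-MB-436 against MCF10A the 2 parts of the arm differed: 3 genes before the span were called lower and 5 higher, whereas 21 after it were lower and 4 higher. These shares are 4.69% and 31.3% lower, beside 17.1% on 8q and 8.74% of all genes. Higher calls made up 7.81% before the span and 5.97% after it, beside 11.4% on 8q and 8.76% of all genes. For HT-29 against MDA-MB-436, 25 genes before the span were called lower and 1 higher, and 15 after it were lower and 1 higher. The lower shares are 39.1% and 22.4%, beside 31.4% of the members, 10.3% of other genes of the span, 15.0% on 8q and 11.0% of all genes. The median log2 differences there were -0.72 before the span and -0.30 after it, beside -0.70 over the members.

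Over all 64 genes before the span, the median log2 difference of HT-29 minus MCF10A was -0.35, with 37 below 0, and it was 0.00 when values under background were set to it. Over all 67 after the span it was -1.11, with or without that floor. MDA-MB-436 minus MCF10A had medians of 0.23 before the span, 0.00 with the floor, and of -0.73 after it, -0.70 with the floor. Many genes before the span were dim in all lines, so medians were also taken over genes whose mean over the 3 arrays was above the highest olfactory receptor value, a filter added with the data in view. It also passes genes that were bright in 1 or 2 lines alone, which differ between lines for that reason, so these medians are descriptive. Of the 23 such genes before the span, 22 were lower in HT-29 than in MCF10A, with a median of -1.34, and of 42 after it 39 were, with a median of -1.59. Of all 7173 genes that passed the filter, 3750 were lower in HT-29, with a median of -0.04, and over 183 such genes of 8q the median was -0.35. For MDA-MB-436 minus MCF10A the filtered medians were -0.02 before the span, -0.95 after it, -0.27 on 8q and -0.19 over all.

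**Figure D2:**
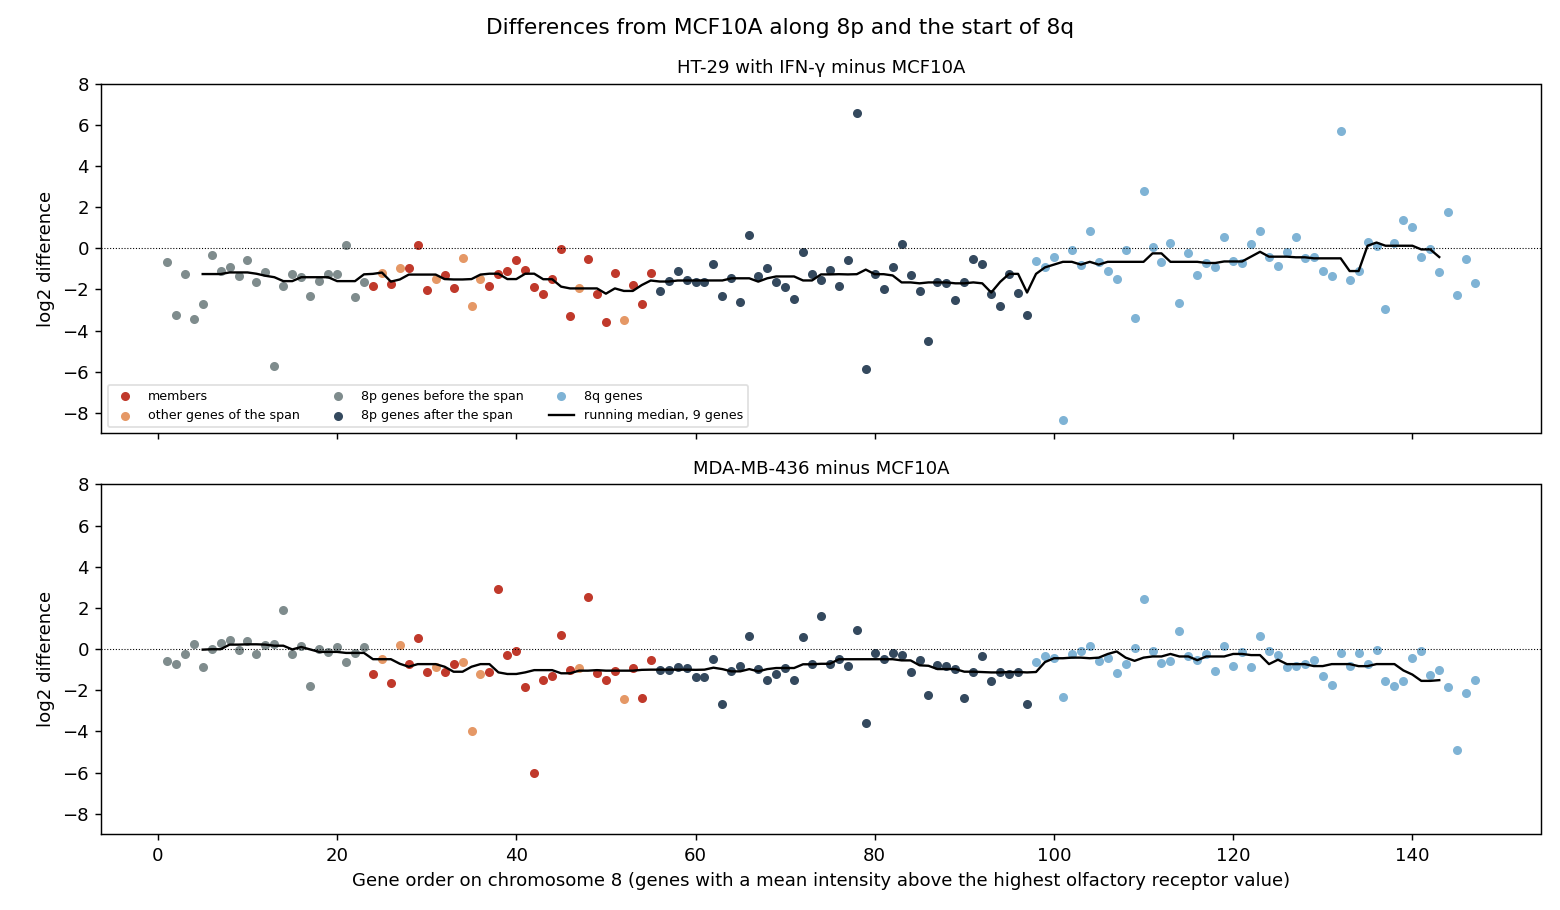
Log2 difference from MCF10A for HT-29 with IFN-γ (top) and MDA-MB-436 (bottom) along 8p and the first 50 genes of 8q, for genes with a mean intensity above the highest olfactory receptor value, in gene order; the line is the running median of 9 genes. In HT-29 the line lies below 0 along all of 8p, while in MDA-MB-436 it is near 0 before the members and below 0 from them to the end of the arm; the filter also passes genes bright in 1 line alone.

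Single genes of the arm went further or the other way; the following were named after their values were seen. TUSC3, a subunit gene of the oligosaccharyltransferase, was at 13.7 in HT-29, 848 in MDA-MB-436 and 723 in MCF10A. HT-29 was under background there, at least 28.3-fold below MDA-MB-436 and at least 24.2-fold below MCF10A. ATP6V1B2, a subunit of the vacuolar proton pump, lies before the span and was at 402 in HT-29, 1348 in MDA-MB-436 and 1238 in MCF10A. INTS10, an Integrator subunit gene also before the span, was at 115 in HT-29, 530.1 in MDA-MB-436 and 604 in MCF10A. For both genes HT-29 was the lowest line, and MDA-MB-436 and MCF10A were within 1.14-fold of each other. IDO1, which encodes a tryptophan-degrading enzyme and is induced by IFN-γ, was at 481 in HT-29, 9.69 in MDA-MB-436 and 5.06 in MCF10A. It was the 1 gene after the span called higher in HT-29 than in MCF10A, by at least 16.1-fold.

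**Figure D3:**
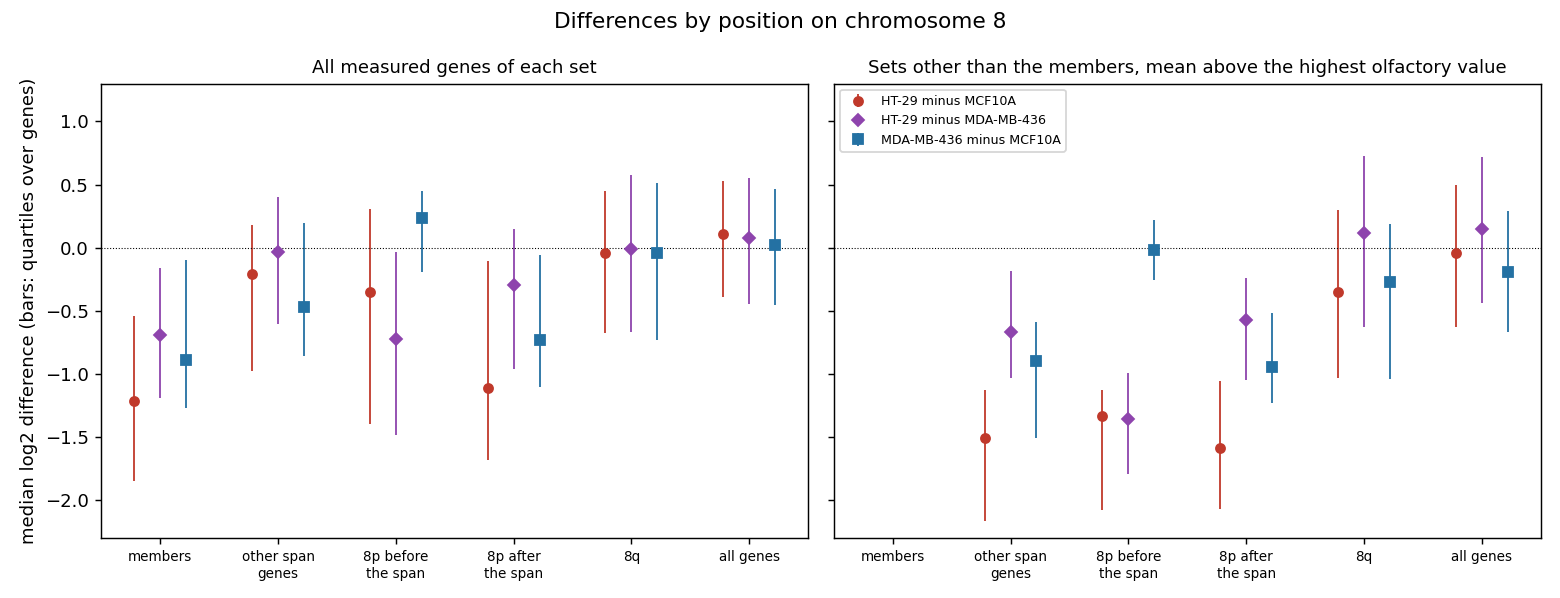
Median log2 difference with quartiles over genes for each set of chromosome 8 genes and each comparison, over all measured genes (left) and over genes with a mean above the highest olfactory receptor value (right, members left out). HT-29 minus MCF10A is -1.21 for the members and -1.11 for 8p genes after the span, and MDA-MB-436 minus MCF10A is 0.23 for 8p genes before the span and -0.73 for those after it.

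To set the members against genes of like function elsewhere, 25 lists of family or complex partners held 133 genes, of which 113 were measured and 105 lay off chromosome 8. Of these 105, 13 were called lower in HT-29 than in MCF10A and 3 higher, or 12.4% and 2.86%, beside 10.1% and 10.2% of all genes. The median log2 difference was -0.11. For MDA-MB-436 against MCF10A, 13 were lower and 11 higher, or 12.4% and 10.5%, against 8.74% and 8.76% of all genes, with a median of -0.12. For HT-29 against MDA-MB-436, 22 were lower and 14 higher, or 20.95% and 13.3%, against 11.0% and 11.5% of all genes, with a median of 0.03. In 14 of the 24 lists with a partner off chromosome 8, the 8p21 member was below every such partner in HT-29 minus MCF10A, a count fixed in part by the choice of members and including EGR3, which was under background in every line. On chromosome 8 itself lay 8 measured partners, with a median of 0.05 in HT-29 minus MCF10A. INTS8, INTS10 and PPP2CB were called lower in HT-29 and CHMP4C higher, or 37.5% and 12.5%, beside 10.1% and 10.2% of all genes. CHMP4C, an ESCRT-III gene on 8q, was at 913 in HT-29, 120 in MDA-MB-436 and 350 in MCF10A.

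The Integrator list held 10 measured partners off chromosome 8, of which none was called between HT-29 and MCF10A in either direction. Their median log2 difference was -0.16, against -2.70 for INTS9. For MDA-MB-436 minus MCF10A, 2 of the 10 were called lower, beside 8.74% of all genes, with a median of -0.53 against -2.40 for INTS9. INTS8, an Integrator gene on 8q, was at 104 in HT-29, 86.5 in MDA-MB-436 and 211 in MCF10A, 2.03-fold lower in HT-29 and 2.44-fold lower in MDA-MB-436 against MCF10A. Among the 10 partners, the HT-29 minus MCF10A difference was lowest for INTS4, at 271 in HT-29, 172 in MDA-MB-436 and 399 in MCF10A. It was highest for INTS6, at 846 in HT-29, 269 in MDA-MB-436 and 546 in MCF10A. Among 9 ESCRT-III partners of CHMP7 the median was 0.47, against -1.83 for CHMP7, from CHMP2B at 358 in HT-29, 535 in MDA-MB-436 and 416 in MCF10A to IST1 at 1855 in HT-29, 858 in MDA-MB-436 and 1025 in MCF10A. The 6 other export receptors had a median of -0.10, against -1.83 for XPO7, from XPO4 at 347 in HT-29, 183 in MDA-MB-436 and 536 in MCF10A to XPOT at 1759.6 in HT-29, 676 in MDA-MB-436 and 1018 in MCF10A. No partner off chromosome 8 in these 3 lists was called between HT-29 and MCF10A, while the differences of the 8p21 genes had a part in their choice. Of all genes, 10.1% were called lower and 10.2% higher in HT-29 than in MCF10A.

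Calcineurin had 3 measured partners, with a median of -0.04 against -2.04 for PPP3CC. The catalytic subunit gene PPP3CA was at 549 in HT-29, 341 in MDA-MB-436 and 665 in MCF10A, and PPP3CB was at 107 in HT-29, 136 in MDA-MB-436 and 110.2 in MCF10A. All 5 partners of PPP2R2A off chromosome 8 were within 2-fold between HT-29 and MCF10A, with a median of -0.46 against -1.50. The lowest difference was that of PPP2R1B, a scaffold subunit gene, at 257 in HT-29, 258 in MDA-MB-436 and 439.8 in MCF10A. PPP2R2D had the highest difference, at 332 in HT-29, 453 in MDA-MB-436 and 330.3 in MCF10A. PPP2CB, a catalytic subunit gene that lies on 8p after the span, was at 288 in HT-29, 374 in MDA-MB-436 and 793 in MCF10A, the order of PPP2R2A itself. Elongator was closer to its member, since ELP2, ELP4 and ELP6 had a median of -0.85 against -1.20 for ELP3. ELP4 was at 298 in HT-29, 167 in MDA-MB-436 and 577 in MCF10A, and ELP2 at 201 in HT-29, 303 in MDA-MB-436 and 329 in MCF10A.

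Mitotic genes listed beside PBK and CDCA2 had 2 of 10 genes called lower in HT-29 than in MCF10A, beside 10.1% of all genes. Their median was -0.43, against -3.60 for PBK and -2.24 for CDCA2. Among the 10, the HT-29 minus MCF10A difference was lowest for CDCA3, at 118 in HT-29, 295 in MDA-MB-436 and 245 in MCF10A. It was highest for MKI67, at 969 in HT-29, 437 in MDA-MB-436 and 858 in MCF10A. In MDA-MB-436 none of the 10 was called against MCF10A, beside 8.74% of all genes lower and 8.76% higher. There PBK and CDCA2 were 2.81-fold and 2.82-fold lower. PBK and CDCA2 belong to the genes chosen because a run of them was low in HT-29 and high in MCF10A on these arrays. Their distance from the 10 in either comparison with MCF10A follows in part from that choice and is descriptive. The DPYSL2 family gave another picture. None of its 4 partners was called between HT-29 and MCF10A, where all 4 lay near or under background, and all 4 were called higher in MDA-MB-436. DPYSL4 was at 28.3 in HT-29, 163 in MDA-MB-436 and 31.5 in MCF10A, and CRMP1 at 31.1 in HT-29, 434 in MDA-MB-436 and 26.3 in MCF10A.

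Some partners were lower by more than the 8p21 gene. BNIP3, the partner of BNIP3L and also a mitophagy receptor gene, was at 6.31 in HT-29, 1439 in MDA-MB-436 and 755 in MCF10A, at least 25.2-fold lower in HT-29 than in MCF10A, while BNIP3L differed by 1.04-fold. STC2 was at least 5.12-fold lower in HT-29, at 14.2 in HT-29, 169 in MDA-MB-436 and 153 in MCF10A, whereas STC1 was under background in both lines. Of 8 SLC39 partners off chromosome 8, 3 were called lower in HT-29 than in MCF10A and 0 higher, beside 10.1% and 10.2% of all genes. These partners ranged from SLC39A8 at 102 in HT-29, 803 in MDA-MB-436 and 803 in MCF10A to SLC39A5 at 44.4 in HT-29, 22.1 in MDA-MB-436 and 22.3 in MCF10A. The member SLC39A14 was 1.10-fold higher in HT-29. Of the lysyl oxidases, LOX was at 12.7 in HT-29, 70.4 in MDA-MB-436 and 239 in MCF10A, under background in HT-29 alone, and LOXL4 was at 40.1 in HT-29, 84.0 in MDA-MB-436 and 22.3 in MCF10A.

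The remaining lists were mixed. The 5 REEP partners of REEP4 had a median of -0.21. Their HT-29 minus MCF10A difference was lowest for REEP3, at 585 in HT-29, 426 in MDA-MB-436 and 949 in MCF10A. It was highest for REEP6, at 237 in HT-29, 143 in MDA-MB-436 and 111 in MCF10A. The RHOBTB2 list, 2 family genes and CUL3, had a median of 0.95, with CUL3 at 436 in HT-29, 444 in MDA-MB-436 and 643 in MCF10A and RHOBTB1 at 39.2 in HT-29, 61.1 in MDA-MB-436 and 20.1 in MCF10A. In HT-29 minus MCF10A, REEP4 and RHOBTB2 lay below all their partners, and so did ENTPD4, whose 5 partners had a median of 0.11. The 6 RNA polymerase III partners of POLR3D had a median of -0.19, but POLR3G was lower than the member, at 14.9 in HT-29, 17.5 in MDA-MB-436 and 119 in MCF10A. SLC25A28, which encodes the other mitoferrin, was at 741 in HT-29, 246 in MDA-MB-436 and 353 in MCF10A, 2.10-fold higher in HT-29 than in MCF10A. Against SLC25A37 on the same arrays, it showed the opposite order of HT-29 and MCF10A. EXTL3 had a difference of -1.79, against a median of -0.89 over 3 partners off chromosome 8. Of these EXTL2 had the lowest difference, at 62.5 in HT-29, 45.0 in MDA-MB-436 and 132 in MCF10A. KIF13B, at 0.58, was above all 4 of its kinesin partners, whose median was 0.15. The lowest difference among them was that of KIF16B, at 62.2 in HT-29, 52.8 in MDA-MB-436 and 120.3 in MCF10A. PDLIM2, DOCK5 and SORBS3 each had a partner with a larger deficit in HT-29 than the member. For PDLIM2 it was PDLIM4, at 33.8 in HT-29, 117 in MDA-MB-436 and 220.1 in MCF10A, for DOCK5 it was DOCK4, at 16.5 in HT-29, 113 in MDA-MB-436 and 114 in MCF10A, and for SORBS3 it was VCL, which encodes vinculin, at 146 in HT-29, 493 in MDA-MB-436 and 317 in MCF10A. EGR1, a relative of EGR3, was 4.30-fold higher in HT-29 than in MCF10A, whereas EGR3 was under background in both. NEFH, the heavy neurofilament gene, was above background in MCF10A alone, at 23.1 in HT-29, 29.0 in MDA-MB-436 and 33.4 in MCF10A.

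**Figure D4:**
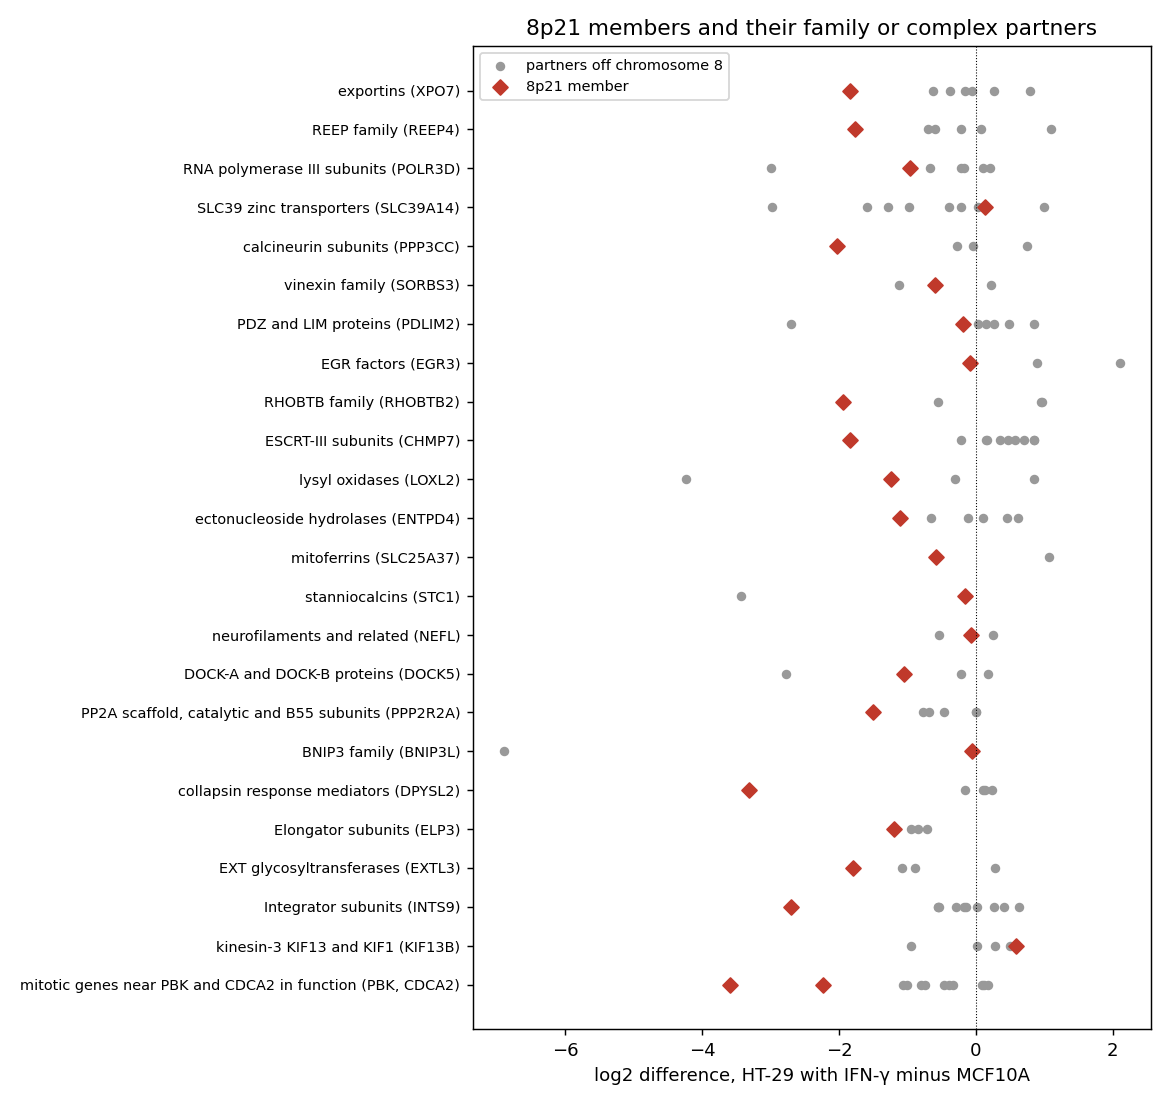
Log2 difference of HT-29 with IFN-γ minus MCF10A for each 8p21 member (red diamonds) and its family or complex partners off chromosome 8 (grey points), 1 row per list. INTS9 at -2.70, CHMP7 at -1.83, XPO7 at -1.83 and PPP3CC at -2.04 lie left of all their partners. BNIP3L and SLC39A14 lie at -0.05 and 0.14, right of partners that were lower. Members were chosen in part on this difference, so their place beside the partners is descriptive.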

How the data were processed

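Total RNA of 3 human cell lines was hybridised to exon arrays, 1 array per line, grouped by the labels. The deposited intensity values are linear, 1 per transcript cluster; how the authors summarised and normalized them is not given in the sources used here, and the submitters' processing notes list hg19. Of 18708 clusters, 14733 had a single symbol, of which 14705 matched RefSeq by identifier (GRCh38.p14, for names and gene order alone). The 2875 clusters with several symbols and the 1100 with none were set aside. The brightest cluster of a gene was used. Members and lists were chosen with earlier results of these data known. Named genes were all members, other genes of the span at least 4-fold different, genes listed by name and 3 genes on either side. Also named were the partners above background with the lowest and highest HT-29 minus MCF10A difference in each list described. On the log2 scale, differences of deposited values were taken; no test was possible. The arms were divided at HGSNAT and PRKDC. Alternatives were quantile normalization, median centring, other background filters, a background floor, folds of 1.5 and 4, and the median over clusters. The counting step was tested on simulated data. The tools were pandas 2.3.3, numpy 2.4.6 and matplotlib 3.10.9 under Python 3.11.15. The number of arrays limits the precision.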

Additional observations from a re-analysis of the deposited data

How the results depend on the processing

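Of 147 recomputed values of 24 results, 125 met the tolerance used, which was 1.5 times for a count and a shift by less than a 1.5-fold change, with no turn of sign, for a median log2 difference. Medians near 0 can thus move by more than 1.5 times within it. With the background floor, the HT-29 minus MCF10A median became 0.00 before the span, over other genes of the span and on 8q, and the HT-29 minus MDA-MB-436 median before the span became -0.34. With quantile normalization, HT-29 minus MCF10A before the span became -0.57. The median log2 differences over the members kept their sign and stayed within 1.5 times in all 3 comparisons under quantile normalization, median centring, the background floor and the median over clusters. Quantile normalization moved the median of all genes by -0.12 for HT-29 minus MCF10A, and median centring moved it by -0.11 for MDA-MB-436 minus MCF10A.

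The counts depend on the fold asked for. At 4-fold, members lower numbered 7 for HT-29 minus MCF10A, 7 for HT-29 minus MDA-MB-436 and 2 for MDA-MB-436 minus MCF10A, and 1 was higher in HT-29 than in MDA-MB-436. Of all genes, 3.50%, 4.68% and 2.01% were lower at 4-fold in these comparisons, and 4.21% were higher in HT-29 than in MDA-MB-436. At 1.5-fold, 19 members were lower and 5 higher in HT-29 than in MDA-MB-436. No share of all genes was taken at 1.5-fold, so counts at that fold, here and below, cannot be set against the shares for 2-fold. Of the other genes of the span, at 4-fold 2, 0 and 2 were lower in HT-29 minus MCF10A, HT-29 minus MDA-MB-436 and MDA-MB-436 minus MCF10A. At 1.5-fold, 5 were lower for HT-29 minus MDA-MB-436 and 9 for MDA-MB-436 minus MCF10A, and with median centring 1 was lower in HT-29 than in MDA-MB-436.

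For HT-29 minus MDA-MB-436, the near-zero median over other genes of the span turned to 0.01 with quantile normalization and 0.06 with median centring, and that over 8q to 0.09 with median centring. Over genes with a mean above the highest olfactory receptor value, chosen after seeing the data, it was 0.11 on 8q, -0.67 over other genes of the span and -1.36 before the span. There HT-29 minus MCF10A had medians of -1.51 over other genes of the span and -1.34 before it. For MDA-MB-436 minus MCF10A the median before the span turned to -0.02, and 3 other genes of the span were lower. The alternative's construction removes dim genes. No paired analysis was possible because each line had 1 array.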
